A study of Arabidopsis thaliana with 12 samples.

Results

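The comparison described here is that of leaves lacking TRB4, TRB5 and CLF (trb45 clf29) with leaves lacking CLF alone (clf29), so that CLF was already mutated in both groups. Its members are 6 of the 12 libraries of the series, 3 per group, chosen by the genotype in their labels. The other 6 libraries, WT (Col0) and trb45, carry an intact CLF and were used for the same mutations in that background. All are polyA RNA-seq of mature Arabidopsis thaliana leaves without treatment, collected at day 21 from plants grown on soil at 23 °C with 16 h of light and 8 h of dark. The trb45 allele is the line named trb45-1 and the CLF allele is clf29. Nothing in the labels says how many plants a library holds or that libraries came from separate plants, so the p-values measure the spread between libraries, which may be technical. A trb45 clf29 column carries no replicate number and is called the unnumbered library.

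TRB proteins are plant DNA-binding proteins with a Myb domain that binds telomere-like repeats, both at chromosome ends and in the short copies called teloboxes that lie in many promoters. CLF is the enzyme by which PRC2, a Polycomb complex, places H3K27me3, a mark of repressed genes. Loss of CLF is known to free flower genes such as AG and SEP3 in leaves, which gives small, curled leaves and early flowering. The comparison asks what loss of TRB4 and TRB5 changes once that repression is weakened.

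The mutated genes were examined first, as a check of the labels. TRB5 (AT1G72740) had 19.6, 17.0 and 15.6 CPM, counts scaled to the size of each library, in clf29 replicates 1 to 3 and 1.12, 1.72 and 1.15 in trb45 clf29 replicate 1, replicate 2 and the unnumbered library, the order used throughout. TRB4 (AT1G17520) went from 4.55, 4.27 and 3.92 CPM to 1.24, 1.31 and 1.25 CPM. The groups did not overlap in either gene, and some transcript of both was left in every trb45 clf29 library. CLF itself lay between 0 and 0.209 CPM in all 6 libraries, against a mean of 11.9 CPM in WT. The related genes TRB1, TRB2 and TRB3 did not pass the test, with log2 fold changes of 0.13, −0.02 and −0.04.

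The 6 libraries were of nearly equal depth, with totals from 53545914 to 54215882 counts. Spearman correlations of log2 CPM across genes were 0.991 to 0.997 within groups and 0.978 to 0.982 between them. No replicates agreed within sampling noise, with a chi-square per degree of freedom from 6.82 to 25.7, the highest between trb45 clf29 replicates 1 and 2. Leaf identity held: the summed level of 4 leaf markers (RBCS1A, LHCB1.1, RCA and CA1) was 66139 to 70138 CPM in clf29 and 73461 to 81083 CPM in trb45 clf29. Markers of 3 other sources were low in both groups. The sum of 4 root markers, counted without IRT1 and SHR, was 0.319 to 0.541 CPM in clf29 and 0.744 to 0.997 CPM in trb45 clf29, and that of 4 seed storage markers 0.152 to 0.262 and 0.430 to 0.877 CPM. Only 1 of the 4 seed storage markers was above 0 in each library, so the seed sum is the level of 1 gene. The sum of 3 pollen markers was at most 0.270 CPM. The sum of 4 dividing tissue markers was 22.5 to 24.9 CPM in clf29 and 30.2 to 35.2 CPM in trb45 clf29. The leaf, root, seed and dividing tissue sums were thus all higher in trb45 clf29 without overlap. The part of such cells in the results below was not tested. Anther, floral organ and defence genes did differ between libraries of a group and are given beside the results they touch. In bulk leaf RNA, fewer cells of a type and less RNA per cell cannot be told apart.

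Loss of TRB4 and TRB5 moved a large part of the clf29 leaf transcriptome, mostly by small amounts. Of 19138 genes tested, 6012 (31.4%) passed an adjusted p of 0.05 in edgeR's quasi-likelihood test, 3288 higher (17.2%) and 2724 lower (14.2%) in trb45 clf29. The median absolute log2 fold change of these genes was 0.467. Only 1116 (5.83%) also changed by at least 1 on the log2 scale, 654 higher (3.42%) and 462 lower (2.41%), and 363 by at least 2, 208 higher and 155 lower. Across all genes tested the median log2 fold change was 0.02, and the 3 and 3 libraries did not overlap in 47.6% of them. The balance of higher and lower calls rests on the scaling: 54.7% were higher with TMM, 49.5% with RLE size factors and 48.3% with library size alone. Abundant genes were called more often, 44.7% of those above 100 CPM against 19.3% of those under 1 CPM. Genes within 1 Mb of TRB4, TRB5 or CLF were called in 30.3%, 29.4% and 35.5% of cases, near the share over all genes.

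**Figure D1:**
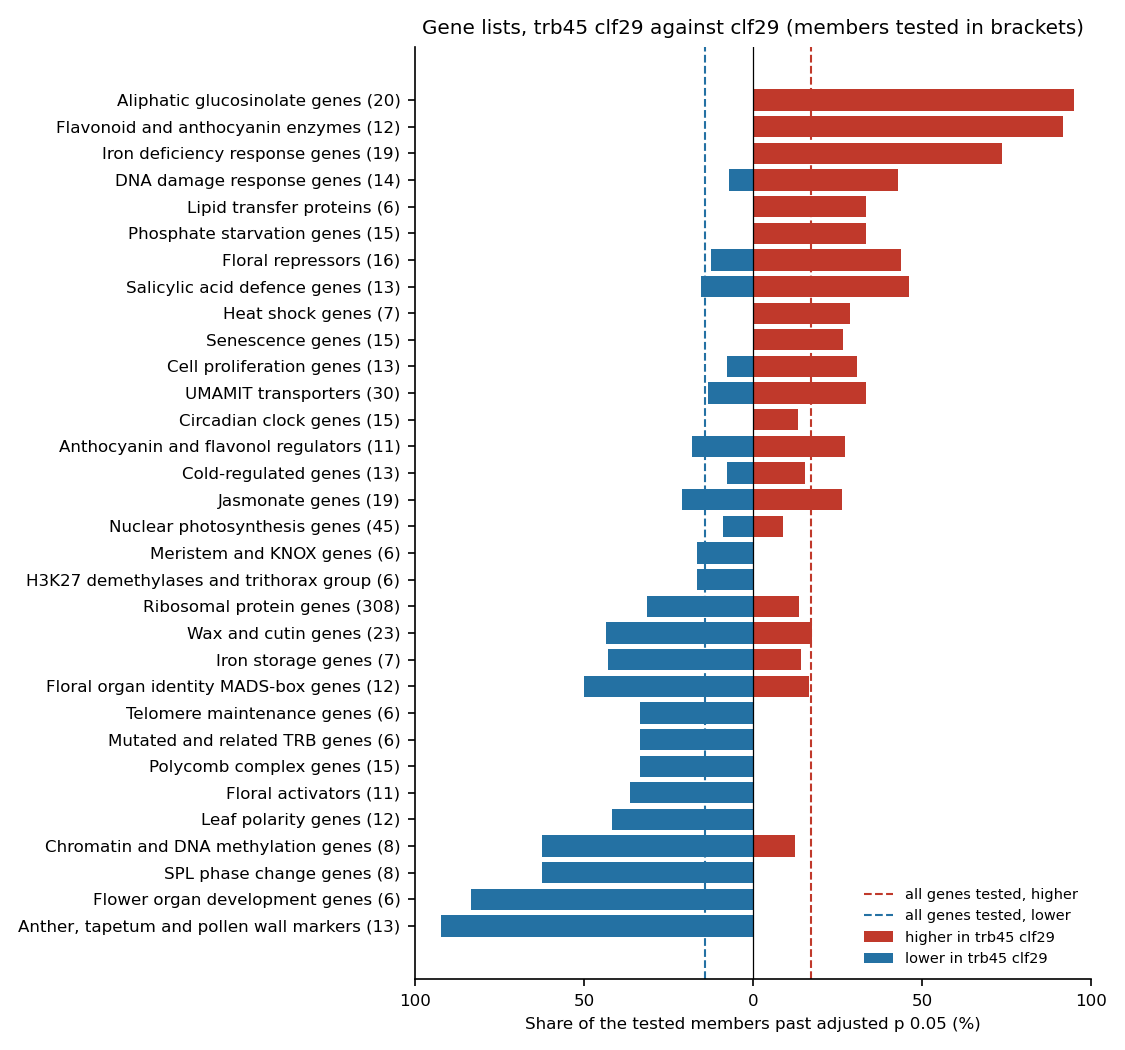
Share of the tested members of each gene list that were higher (right, red) or lower (left, blue) in trb45 clf29 than in clf29 at an adjusted p under 0.05, for lists with at least 6 tested members. Dashed lines mark the shares over all 19138 genes, 17.2% higher and 14.2% lower. Glucosinolate, flavonoid and iron deficiency lists reach furthest to the right, and anther, flower organ and SPL lists furthest to the left.

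Genes of anthocyanin synthesis rose together. Of 12 tested flavonoid and anthocyanin enzymes 11 rose and none fell (91.7% called against 31.4% over all genes). Their median log2 fold change was 1.58 against 0.02 over all genes. The late steps, which make and decorate the coloured pigments, moved most. LDOX (AT4G22880), the dioxygenase that makes anthocyanidins, had 0.899, 0.696 and 1.05 CPM in clf29 and 29.7, 23.2 and 24.4 CPM in trb45 clf29, a rise of 4.87 on the log2 scale (SE 0.15, edgeR adjusted p = 4.1e-12). DFR (AT5G42800), the reductase of the step before it, went from 1.37, 0.618 and 0.912 CPM to 47.8, 36.6 and 45.5 CPM (5.48 on the log2 scale with an SE of 0.17, edgeR adjusted p = 5.9e-12). Every trb45 clf29 library lay far above every clf29 library in both genes, and lack of overlap was a condition for the largest rises, to which both belong.

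The enzymes that add sugars and acyl groups, and the transferase that takes part in moving the pigment to the vacuole, rose with them. The log2 fold changes were 4.76 for the glycosyltransferase UF3GT, 5.24 for the malonyltransferase 5MAT (listed as AT5MAT) and 2.65 for the glutathione transferase GSTF12. The early steps rose less: chalcone synthase (CHS, listed as TT4), the entry enzyme of the pathway, had 946, 889 and 938 CPM in clf29 and 1419, 1027 and 1160 CPM in trb45 clf29. Flavonol synthase (FLS1), which leads away from anthocyanins, was the member that did not pass, with a log2 fold change of 0.02 (edgeR adjusted p = 0.917). Among 11 tested regulators 3 rose and 2 were called lower (45.5% called against 31.4% over all genes). The count of lower regulators went to 0 without clf29 replicate 2 or without the unnumbered library. It went to 1 without clf29 replicate 3, trb45 clf29 replicate 1 or trb45 clf29 replicate 2. TT8, a bHLH factor that activates late genes, went from 0.112, 0.271 and 0.190 CPM to 2.13, 1.93 and 2.25 CPM, and the MYB activator PAP1 from 2.55, 0.927 and 1.43 CPM to 10.6, 8.22 and 10.06 CPM. MYBL2, a repressor of the same genes, also rose, by 0.71 on the log2 scale (SE 0.12, edgeR adjusted p = 0.000245).

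The same enzymes moved the same way where CLF was intact. In trb45 against WT, libraries that share nothing with the comparison above, 25.7% of all genes were called, 14.5% of all genes higher and 11.2% lower. All 12 enzymes rose there. None passed the interaction term, the test of the difference between backgrounds, which 7.47% of all genes passed. LDOX rose by 4.63 and DFR by 4.82 on the log2 scale there, and TT8 by 3.60.

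**Figure D2:**
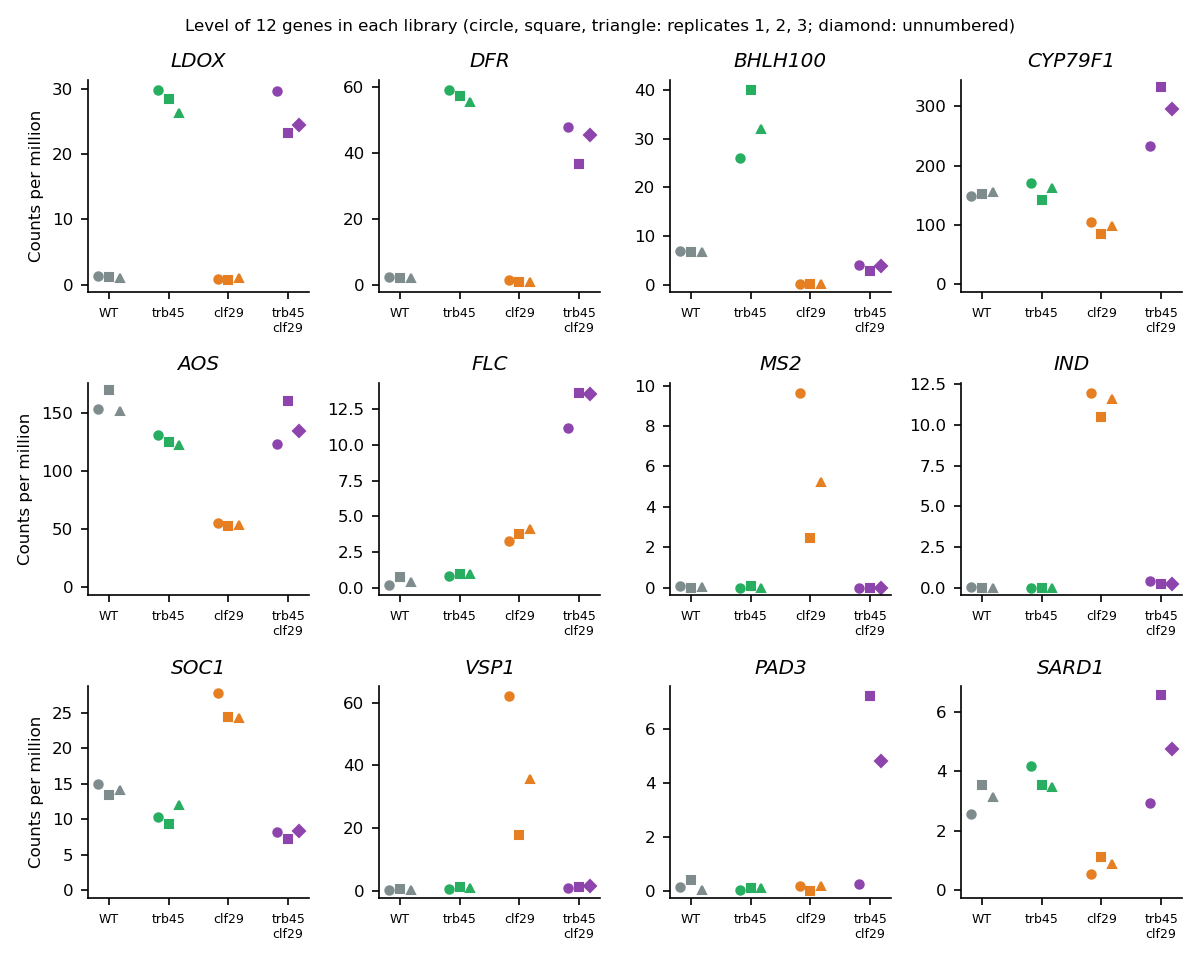
Level in CPM of 12 genes in each of the 12 libraries, with colours for the 4 groups and a marker for each replicate number. LDOX and DFR are high in both trb45 groups. CYP79F1 and FLC are highest in trb45 clf29. MS2, IND and VSP1 are high in clf29 only, and PAD3 and SARD1 are lowest, among the trb45 clf29 libraries, in replicate 1.

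Genes of the iron deficiency response also rose. Of 19 tested, 14 rose and none fell (73.7% called against 31.4% over all genes), with a median log2 fold change of 1.12. At the top of the cascade stand the bHLH Ib factors, which switch on iron uptake. BHLH100 (AT2G41240) had 0.0750, 0.0386 and 0.0760 CPM in clf29 and 4.07, 2.80 and 3.78 CPM in trb45 clf29, a rise of 5.75 on the log2 scale (SE 0.32, edgeR adjusted p = 5.33e-09). In clf29 BHLH100 lay near a floor of 3 counts, 0.0562 to 0.0580 CPM in those libraries, so the size of its rise is uncertain. Its relatives bHLH39 and bHLH38 rose by 4.90 and 4.04 on the log2 scale, but these neighbouring genes are close in sequence, and how shared reads were counted is not given in the sources used here. Groups did not overlap in any of them, which was a condition for the largest rises, BHLH100 and bHLH39 among them. All 3 genes stayed below their WT means, 6.79 CPM for BHLH100.

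Genes that move iron rose too. NAS1, which makes the iron chelator nicotianamine, went from 10.6, 6.82 and 7.70 CPM to 39.6, 70.3 and 56.0 CPM (2.72 on the log2 scale with an SE of 0.18, edgeR adjusted p = 2.44e-08). The ferric reductase FRO3 rose by 1.76 and OPT3, a phloem transporter that takes part in iron signalling, by 1.02 on the log2 scale. FIT (listed as FRU), the partner of the bHLH Ib factors in roots, did not pass, with under 1 CPM in all 6 libraries. Ferritin FER4, which stores iron, fell from 33.9, 39.2 and 36.8 CPM to 23.8, 22.7 and 22.5 CPM (−0.67 on the log2 scale with an SE of 0.07, edgeR adjusted p = 3.46e-06). Of 7 tested iron storage and related genes 3 fell and 1 was called higher (57.1% called against 31.4% over all genes). The higher call was lost without clf29 replicate 3, trb45 clf29 replicate 1 or trb45 clf29 replicate 2. In the WT background 13 of the 19 iron deficiency genes rose and 1 fell. The rise was larger with clf29 in 6 of them by the test of the difference, among them BHLH100 (by 3.49), bHLH39 (by 3.17), bHLH38 (by 2.38) and NAS1 (by 1.15).

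Aliphatic glucosinolate synthesis, which makes sulfur-rich defence compounds from methionine, rose as a block in the clf29 background. Of 20 tested genes 19 rose and none fell (95% called against 31.4% over all genes), with a median log2 fold change of 0.99. Among the side-chain elongation genes, BCAT4, the first aminotransferase of the pathway, went from 24.8, 15.2 and 18.8 CPM to 58.9, 103 and 77.3 CPM (2.02 on the log2 scale with an SE of 0.19, edgeR adjusted p = 9.9e-07). The isomerase subunits IPMI2 and IPMI1 rose by 1.69 and 1.02 on the log2 scale. Of the core-structure genes, CYP79F1 (AT1G16410), which turns elongated methionine into aldoximes, had 105, 84.6 and 97.8 CPM in clf29 and 233, 332 and 295 CPM in trb45 clf29 (1.58 on the log2 scale with an SE of 0.11, edgeR adjusted p = 6.36e-08). The next enzyme, CYP83A1, rose by 1.00 and the sulfotransferase SOT17, which acts at the end, by 0.78. No clf29 library reached a trb45 clf29 library in these 6 genes, and trb45 clf29 replicate 1 was the lowest of its group in each. MYB28, a main activator of the pathway, was the member that did not pass (log2 fold change 0.29, edgeR adjusted p = 0.0826).

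In trb45 against WT 3 of the 20 rose and 1 fell, and the difference between backgrounds passed for 16 of the 20. Without trb45 clf29 replicate 1 all 20 rose in the clf29 background. The log2 fold change of CYP79F1 was 0.06 in trb45 against WT, and it was 1.52 higher in the clf29 background (edgeR adjusted p of the difference = 2.98e-05). BCAT4 gave 0.02 in the WT background, 2.00 less than with clf29. TGG2, a myrosinase that cleaves glucosinolates, fell in the clf29 background from 3210, 2933 and 3029 CPM to 1135, 846 and 978 CPM (−1.63 on the log2 scale with an SE of 0.12, edgeR adjusted p = 8.9e-08), and by 1.81 where CLF was intact.

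**Figure D3:**
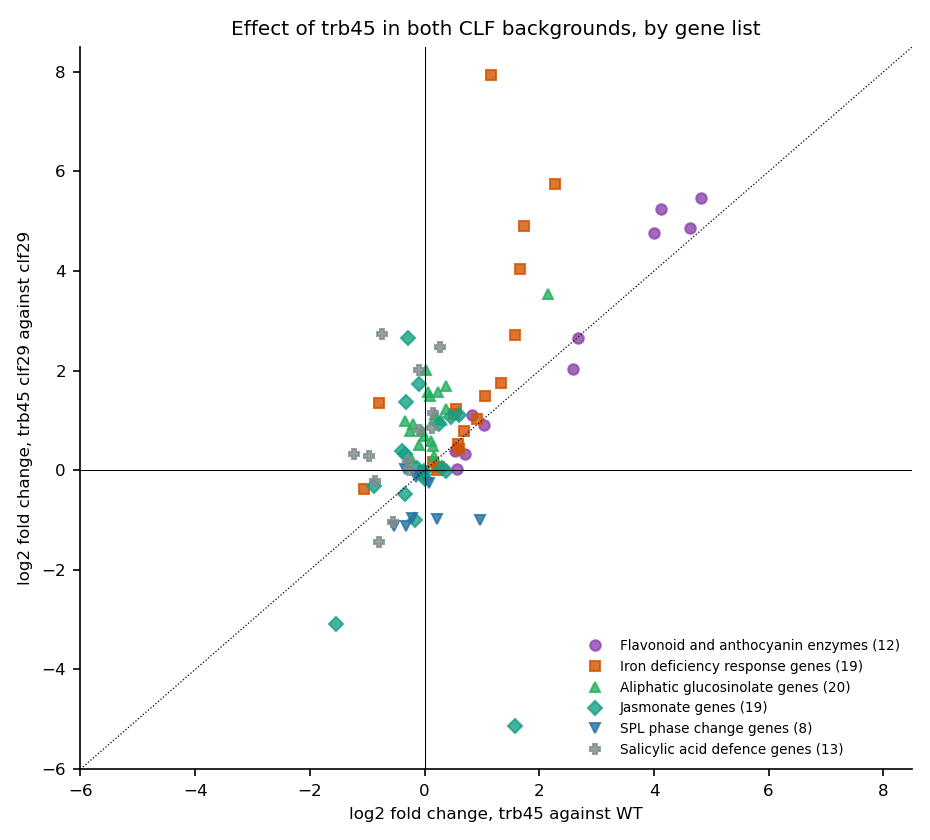
Log2 fold change of trb45 against WT (horizontal) and of trb45 clf29 against clf29 (vertical) for the tested members of 6 gene lists, with a dotted line where both are equal. Flavonoid genes lie near the line. Glucosinolate genes lie above 0 on the vertical axis and, but for 1 point, near 0 on the horizontal axis, and the bHLH Ib iron genes lie above the line.

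Jasmonate genes moved in both directions. Of 19 tested, 5 rose and 4 fell (47.4% called against 31.4% over all genes). Among those that rose, AOS (AT5G42650), the allene oxide synthase, went from 55.6, 53.0 and 53.4 CPM to 124, 161 and 135 CPM (1.37 on the log2 scale with an SE of 0.08, edgeR adjusted p = 1.18e-08), and AOC2, the next cyclase, by 1.74 on the log2 scale. Among those that fell, VSP1 (AT5G24780), a vegetative storage protein, had 62.3, 17.8 and 35.6 CPM in clf29 and 0.837, 1.06 and 1.37 CPM in trb45 clf29 (−5.14 on the log2 scale with an SE of 0.41, edgeR adjusted p = 2.04e-07). VSP2 fell by 3.08, and LOX2, a lipoxygenase at the entry of jasmonate synthesis, by 0.99. The groups did not overlap in these genes, which for VSP1, among the largest falls, was a condition of that choice. VSP1, VSP2 and the myrosinase-binding protein MBP2 were highest in clf29 replicate 1 and lowest in clf29 replicate 2, the order of the anther and floral organ markers given below, and the part of those cells in this result was not tested.

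Flower genes moved in both directions, more of them down. Of 12 tested organ identity MADS-box genes 6 fell, 2 rose and 4 did not pass (66.7% called against 31.4% over all genes). Their median log2 fold change was −0.96. SEP3 (AT1G24260), a cofactor of all organ programmes, went from 53.0, 48.4 and 53.5 CPM to 26.4, 26.7 and 25.5 CPM (−0.98 on the log2 scale with an SE of 0.09, edgeR adjusted p = 9.34e-07). SEP1 and SEP2 fell by 2.40 and 4.19 on the log2 scale, but the pair is close in sequence. AP1, which sets floral meristem identity, had 2.00, 0.309 and 1.05 CPM in clf29 and none in the other group, at least 19.0-fold lower against a floor of 3 counts per library. In the opposite direction, AG (AT4G18960), the gene of stamen and carpel identity, rose from 48.4, 47.6 and 44.7 CPM to 69.0, 63.6 and 64.1 CPM (0.48 on the log2 scale with an SE of 0.07, edgeR adjusted p = 6.38e-05). Both AG and SEP3 had a mean under 1 CPM in WT (0.738 and 0.0243). The groups did not overlap in either gene. Leaving out 1 library at a time, 4 to 6 of the 12 MADS-box genes fell, 4 without trb45 clf29 replicate 1 or replicate 2, and 2 rose in each case.

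Fruit and organ growth genes followed the fall. Of 10 listed flower organ development genes 6 passed the filter on low counts. Of these 5 fell and none rose (83.3% called against 31.4% over all genes). That filter favours genes high in a single group, as IND was in clf29, so the count is a description. IND (AT4G00120), which patterns the zone where the fruit opens, had 11.99, 10.5 and 11.6 CPM in clf29 and 0.379, 0.193 and 0.196 CPM in trb45 clf29 (−5.47 on the log2 scale with an SE of 0.25, edgeR adjusted p = 4.51e-09). ALC, its partner in fruit opening, fell by 1.06 and JAG, a growth factor of lateral organs, by 1.81. IND was even among the clf29 libraries, while the sum of the anther markers described next was not. The part of flower tissue in the fall of IND was not tested.

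Anther genes were present in clf29 leaves and far lower in trb45 clf29. Of 20 listed markers of the anther, the tapetum (the tissue that feeds pollen) and the pollen wall, 13 passed the filter on low counts, and 12 of these fell. Since clf29 was the group where most of these genes had counts, that filter favours genes that differ, and the count is a description. MS2 (AT3G11980), a reductase of pollen wall synthesis, had 9.65, 2.44 and 5.21 CPM in clf29 and no count in trb45 clf29, at least 98.1-fold lower. The glucanase-like MEE48 (AT4G14080) had 7.33, 5.35 and 5.95 CPM and no count, at least 106-fold lower. ACOS5, an acyl-CoA synthetase for the pollen wall, was at least 36.8-fold lower, a call that DESeq2 did not make (DESeq2 adjusted p = 0.0802). Of the 20 markers, 10 had no count in any trb45 clf29 library and 5 were above 0 in all 3. A WT library had counts in 7 to 9 of the 20.

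The 20 markers summed to 45.3, 24.6 and 32.9 CPM in clf29 replicates 1 to 3 and to 5.98, 6.31 and 5.15 CPM in trb45 clf29, close to the 5.83 to 7.28 CPM of WT. The 5 floral organ markers (SEP1, SEP2, AP1, AP3 and PI) gave 17.43, 7.67 and 11.4 CPM in clf29 and 3.87, 3.84 and 3.48 CPM in trb45 clf29. They leave out other genes of the MADS-box list, among them SEP3, which fell, and AG and SEP4, the 2 that rose. SEP4 rose by 0.24 to 0.38 on the log2 scale over the alternatives and lost its call with a replicate block. In both sums clf29 replicate 1 was highest and replicate 2 lowest, and the groups did not overlap. Without clf29 replicate 1, 11 of 13 tested anther markers fell, again after the filter on low counts, so this count is a description too. Across all genes, 24 called genes had no count in trb45 clf29. Of these, 21 were highest in clf29 replicate 1, 20 were lowest in replicate 2 and 14 had no count in WT. How much flower tissue the clf29 samples held, and its part in these results, was not tested.

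**Figure D4:**
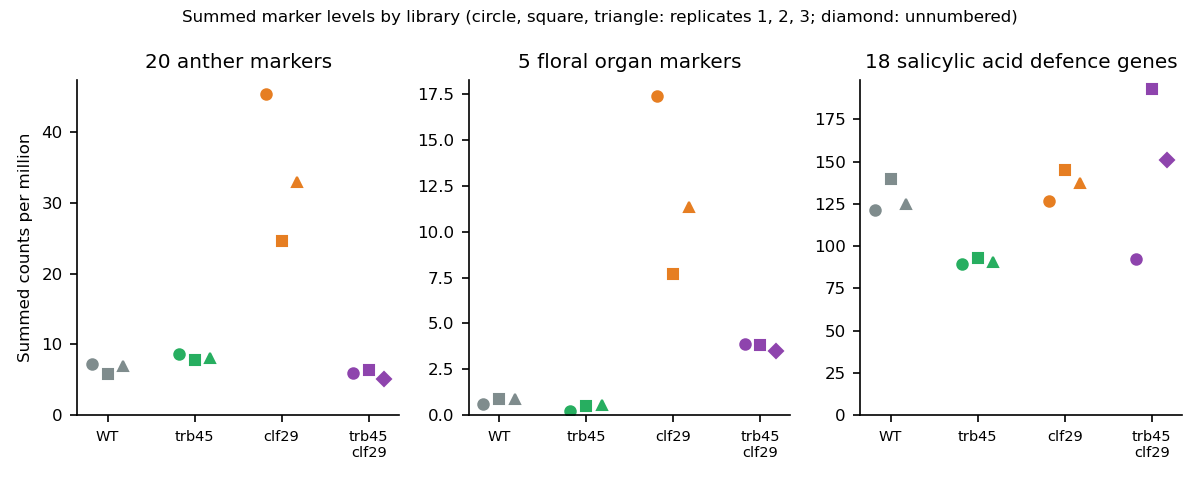
Summed level in CPM of 20 anther markers, 5 floral organ markers and 18 salicylic acid defence genes in each of the 12 libraries. The floral organ markers do not include AG and SEP4, which rose. The anther and floral sums are high in the 3 clf29 libraries, with replicate 1 above replicate 3 and replicate 2, and low in trb45 clf29. The defence sum is 92.6 CPM in trb45 clf29 replicate 1 and 193 CPM in replicate 2.

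Some flowering activators fell and some repressors rose. Of 11 tested floral activators 4 fell, none rose and 7 did not pass (36.4% called against 31.4% over all genes). SOC1 (AT2G45660, listed as AGL20), the MADS factor that joins the flowering signals, went from 27.7, 24.4 and 24.3 CPM to 8.27, 7.25 and 8.38 CPM (−1.68 on the log2 scale with an SE of 0.10, edgeR adjusted p = 9.41e-09), and its relative FUL fell by 1.94. The fall was larger than in the WT background by 1.25 for SOC1 and 1.44 for FUL. The florigen gene FT did not pass, with a log2 fold change of −0.30 (edgeR adjusted p = 0.468). Among 8 tested SPL genes, which promote the adult phase and flowering, 5 fell and none rose (62.5% called against 31.4% over all genes). SPL9 (AT2G42200) went from 7.74, 6.05 and 8.19 CPM to 3.23, 3.97 and 3.97 CPM, SPL15 fell by 1.01 and SPL2 by 1.13. For SPL9, SPL11, SPL2 and SPL15 the effect differed between backgrounds, and SPL15 rose by 0.97 in trb45 against WT.

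Of 16 floral repressors 7 rose and 2 fell (56.2% called against 31.4% over all genes). FLC (AT5G10140), the main repressor that vernalization silences through PRC2, had 3.30, 3.75 and 4.11 CPM in clf29 and 11.2, 13.7 and 13.6 CPM in trb45 clf29 (1.79 on the log2 scale with an SE of 0.20, edgeR adjusted p = 5.85e-06). SVP, its partner, rose from 15.8, 17.7 and 16.6 CPM to 23.9, 26.4 and 25.3 CPM, and the AP2-type repressors TOE1 and SNZ by 1.11 and 1.30. TEM1, which represses FT, fell by 0.52. FLC was higher than WT in both groups, whereas SVP, TOE1 and SNZ were nearer to their WT means of 39.6, 62.5 and 19.0 CPM in trb45 clf29 than in clf29. The repressor median was 0.15 and changed little with scaling, 0.13 with RLE and 0.12 with library size.

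Leaf shape and surface genes also changed. Of 12 leaf polarity genes 5 fell and none rose (41.7% called against 31.4% over all genes). YAB3, a factor of the lower leaf side, fell from 35.3, 37.0 and 34.7 CPM to 22.4, 21.9 and 21.9 CPM. ARF3 (listed as ETT) fell by 0.62. Of 23 wax and cutin genes 10 fell and 4 rose (60.9% called against 31.4% over all genes). CER4, the reductase that makes wax alcohols, went from 47.7, 42.1 and 44.1 CPM to 12.7, 13.5 and 14.7 CPM (−1.71 on the log2 scale with an SE of 0.10, edgeR adjusted p = 9.43e-09), and CER1, which makes alkanes, fell by 0.68. CER6 (listed as KCS6), which elongates wax precursors, rose by 0.59. MAH1 (CYP96A15), the alkane hydroxylase of stems, was at 4.82, 0.541 and 2.07 CPM in clf29 and had no count in trb45 clf29, with the library order of the anther markers.

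Of 15 tested Polycomb genes 5 were called lower and none higher, 33.3% called against 31.4% over all genes. Without clf29 replicate 2 the count was 3, and without trb45 clf29 replicate 2 there were 4 lower and 1 higher. The 5 include MSI1, a histone-binding subunit of PRC2, which fell by 0.42, and FIE, another core subunit, which fell by 0.35 on the log2 scale. The median over the 15 was −0.17. ULT1, a trithorax-type factor that opposes Polycomb, went from 15.8, 18.3 and 17.9 CPM to 8.33, 7.79 and 8.34 CPM (−1.09 on the log2 scale with an SE of 0.11, edgeR adjusted p = 1.68e-06), and fell by 0.90 in the WT background. Of 8 chromatin and DNA methylation genes 5 fell and 1 rose (75% called against 31.4% over all genes). CMT3, the CHG methyltransferase, fell by 1.13 and MET1, the CG methyltransferase, by 0.43, while the stress-induced linker histone HIS1-3 rose by 2.54.

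Some genes known from stressed or damaged cells rose. Of 14 tested DNA damage genes 6 rose and 1 fell (50% called against 31.4% over all genes). Leaving out 1 library at a time, 4 to 6 rose, 4 without the unnumbered library. NAC044 (AT3G01600), a transcription factor of the DNA damage response, had 0.0375, 0.0773 and 0.114 CPM in clf29 and 4.17, 4.51 and 3.89 CPM in trb45 clf29 (5.74 on the log2 scale with an SE of 0.34, edgeR adjusted p = 9.2e-09), and rose by 4.64 in the WT background. The clf29 values of NAC044 lie near the floor of 3 counts, so the size of its rise with clf29 is uncertain. SMR5 (listed as AT1G07500), a cell-cycle inhibitor of the DNA damage response, rose by 2.60, and PARP1, a repair enzyme, fell by 0.39. Of 6 tested telomere maintenance genes 2 were called lower and none higher, 33.3% called against 31.4% over all genes. They were POT1a (AtPOT1a, log2 fold change −0.86, edgeR adjusted p = 0.0266) and KU80 (log2 fold change −0.24, edgeR adjusted p = 0.0343). Neither call held throughout: leaving out 1 library at a time gave adjusted p up to 0.0804 for POT1a, lost in 5 of 6 omissions (all but the unnumbered library), and up to 0.128 for KU80, lost in all but that of clf29 replicate 3.

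Of the 8 risen genes of smallest p above 100 CPM, 3 code for plastid chaperones or import. CR88, the plastid HSP90 chaperone, went from 136, 147 and 143 CPM to 431, 403 and 417 CPM (1.55 on the log2 scale with an SE of 0.07, edgeR adjusted p = 5.92e-10). CPN60A, a chaperonin subunit that folds plastid proteins, rose from 617, 675 and 643 CPM to 1698, 1373 and 1486 CPM, and TIC110 of the inner envelope import channel by 0.97. In trb45 against WT CR88 rose by 1.49, CPN60A by 1.22 and TIC110 by 0.92, and none of the 3 differed between backgrounds by the test. Of the cytosolic HSP90 genes, HSP81-3 and HSP81-2, which are close in sequence, fell by 1.199 and 1.21, and HSP90.1 rose by 1.07. Of 45 nuclear genes chosen by name pattern for photosynthesis, a pattern that also took in PSAT and PSAT1, which are no photosystem genes, 4 rose and 4 fell (17.8% against 31.4% over all genes). The lower count was 2 without clf29 replicate 2 or 3, and both counts were 2 without the unnumbered library. Of 30 amino acid transporters of the UMAMIT family 10 rose and 4 were called lower (46.7% called against 31.4% over all genes). The count of lower transporters was 2 without clf29 replicate 1, trb45 clf29 replicate 1 or trb45 clf29 replicate 2. The family was led by UMAMIT17 (log2 fold change 3.06) and UMAMIT20 (2.81) upward and UMAMIT36 (−3.05) downward.

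Salicylic acid defence genes were uneven among the trb45 clf29 libraries. Of 13 tested 6 rose and 2 fell (61.5% called against 31.4% over all genes). PR5, a defence protein, fell from 37.5, 42.8 and 41.9 CPM to 17.3, 23.1 and 19.2 CPM, and PBS3, an enzyme of salicylic acid synthesis, by 1.45. SARD1, an activator of that synthesis, went from 0.543, 1.14 and 0.875 CPM to 2.95, 6.56 and 4.75 CPM (2.48 on the log2 scale with an SE of 0.28, edgeR adjusted p = 8.86e-06). PR2 (listed as BGL2), a glucanase, had 10.2, 2.20 and 5.19 CPM in clf29 and 4.84, 40.6 and 25.3 CPM in trb45 clf29, where replicate 1 lay inside the clf29 range. Its call (edgeR adjusted p = 0.0117) was lost without clf29 replicate 2 (0.0565), clf29 replicate 3 (0.0512) or trb45 clf29 replicate 2 (0.0766).

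PAD3, the last enzyme of camalexin synthesis, had 0.169, 0 and 0.171 CPM in clf29 and 0.239, 7.21 and 4.79 CPM in trb45 clf29. Among genes called in both the comparison and the difference between backgrounds, with a mean of at least 1 CPM, the 5 largest positive differences were those of AT4G10500, PCR1, PAD3, SAG13 and TAT3, which all had their lowest trb45 clf29 value in replicate 1. Among the 208 genes that rose by at least 2 on the log2 scale, replicate 1 was the lowest of the 3 libraries in 112, and replicate 2 was over 3 times replicate 1 in 46. Over the defence list, the sums of the 18 genes were 92.6, 193 and 151 CPM in trb45 clf29 and 127, 145 and 137 CPM in clf29. Without trb45 clf29 replicate 1, 11 of 18 tested defence genes rose and 2 fell. Without replicate 2, 3 of 13 rose and 3 fell.

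Of ribosomal protein genes more fell than rose. The list was chosen by product name and, beside cytosolic ribosomal proteins, holds some of plastids and mitochondria and L18ae-family proteins, so the counts here and in the promoter split below are of a mixed set. Of 308 tested, 97 fell and 42 rose (45.1% called against 31.4% over all genes), with a median log2 fold change of −0.08. Some single copies of multi-copy families were nearly lost. AT4G25890, an acidic protein of the large subunit, went from 41.2, 45.3 and 44.4 CPM to 3.99, 2.76 and 3.15 CPM (−3.73 on the log2 scale with an SE of 0.11, edgeR adjusted p = 2.69e-12), and by 3.58 on the log2 scale in the WT background. AT5G59240, of the S8e family, had 1.65, 2.55 and 2.03 CPM in clf29 and 0.0399, 0.116 and 0 CPM in trb45 clf29. AT2G40010, of the L10 family, went the other way, from 3.73, 3.34 and 4.14 CPM to 18.4, 14.8 and 17.8 CPM. Related copies can share reads, so the levels of single copies are uncertain to that extent. NUC-L1 (nucleolin), which helps make ribosomes, fell from 260, 267 and 247 CPM to 120, 104 and 112 CPM, and TCTP, a growth-linked protein, from 650, 614 and 609 CPM to 280, 255 and 264 CPM.

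The telobox AAACCCTA, on either strand, was searched in 300 bases around the start of each gene, 250 before it and 50 after it. It was held by 1072 of 19119 tested genes with such a window (5.61%), by 9.0% of those that fell and by 4.08% of those that rose. Put the other way, 22.9% of telobox genes fell and 12.5% rose, against 13.7% and 17.5% of genes without it. Over the alternatives with the same threshold the share that fell ran from 16.1% to 25.4% with a telobox and from 8.86% to 16.7% without it, and it was the higher of the pair in each. With a log2 change of at least 1 as well it was 4.85% with and 2.27% without a telobox. The site II motif TGGGCC, a frequent element of genes for growth and ribosomes, did not show that split. With it 13.0% of genes fell and 17.9% rose, against 14.5% and 17.0% without it. Of the 369 genes with both motifs 26.8% fell and 10.8% rose. Neither motif contains the other.

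Within the ribosomal protein genes the split was larger. Of 111 with a telobox 51 fell and 6 rose, with a median log2 fold change of −0.17, and of 197 without it 46 fell and 36 rose, with a median of −0.04. In trb45 against WT 28 of the 111 fell and 15 rose, and 20 of the 197 fell and 38 rose. Over all genes in trb45 against WT, 13.6% of telobox genes fell and 20.1% rose, against 11% and 14.2% of genes without a telobox, so both shares were higher with it. These shares are descriptions of promoter letters, and no occupancy of TRB proteins was measured here.

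**Figure D5:**
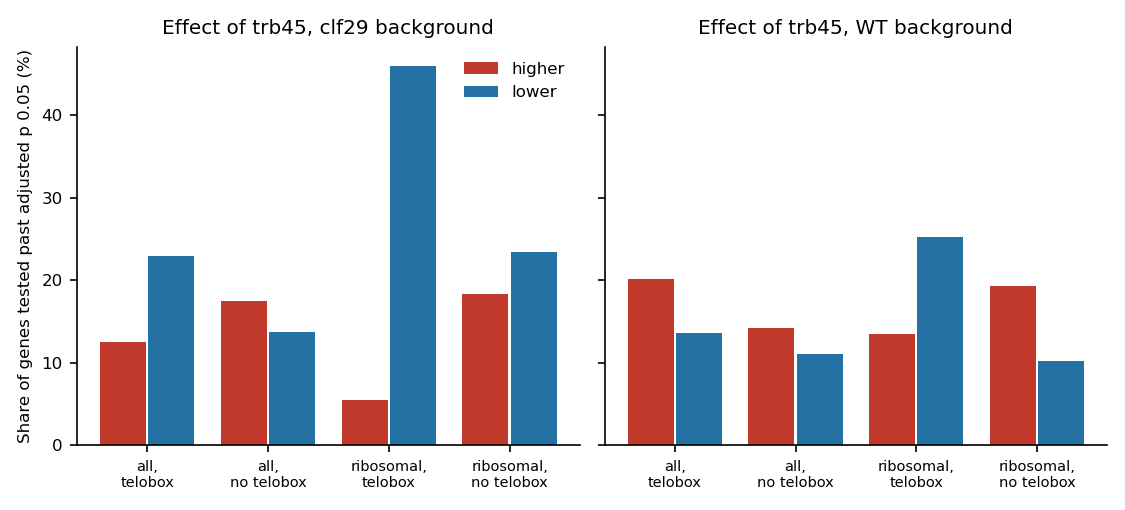
Share of tested genes that were higher (red) or lower (blue) at an adjusted p under 0.05, for genes with and without a telobox in the 300-base window, over all genes and over ribosomal protein genes, in the clf29 background (left) and the WT background (right). In the clf29 background telobox genes fell in 22.9% of cases and ribosomal telobox genes in 45.9%.

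The 250 bases before the start of 5 fallen genes with a telobox are shown, and those of CR88, which rose and has site II motifs without a telobox, for contrast. The ribosomal genes printed are the 3 with the smallest p among the 15 fallen ribosomal protein genes with at least 100 CPM and a telobox in these bases, and AT5G59240 is among the largest falls. Teloboxes and site II motifs are in capitals, sequences read in the direction of the gene, and they come from the RefSeq genome TAIR10.1.
TCTP: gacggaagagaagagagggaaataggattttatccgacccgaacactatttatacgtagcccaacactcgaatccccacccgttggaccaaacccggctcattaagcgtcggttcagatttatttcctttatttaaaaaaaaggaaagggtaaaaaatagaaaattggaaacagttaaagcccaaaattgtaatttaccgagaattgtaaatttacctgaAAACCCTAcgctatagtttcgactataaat
AT5G59240: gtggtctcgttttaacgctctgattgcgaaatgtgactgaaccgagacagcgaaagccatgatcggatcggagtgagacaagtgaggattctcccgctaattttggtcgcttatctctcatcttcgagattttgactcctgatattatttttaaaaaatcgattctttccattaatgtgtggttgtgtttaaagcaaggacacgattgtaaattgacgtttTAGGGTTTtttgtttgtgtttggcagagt
AT5G45775: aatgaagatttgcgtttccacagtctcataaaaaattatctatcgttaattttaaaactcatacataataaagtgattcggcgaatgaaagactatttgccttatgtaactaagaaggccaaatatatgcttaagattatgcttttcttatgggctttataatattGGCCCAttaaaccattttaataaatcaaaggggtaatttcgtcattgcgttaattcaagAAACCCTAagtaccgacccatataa
AT2G36160: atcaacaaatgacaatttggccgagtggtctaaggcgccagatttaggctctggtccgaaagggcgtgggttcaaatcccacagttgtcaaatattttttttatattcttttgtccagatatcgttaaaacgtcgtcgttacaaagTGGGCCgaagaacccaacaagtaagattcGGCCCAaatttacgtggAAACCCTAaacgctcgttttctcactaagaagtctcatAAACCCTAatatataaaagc
AT3G24830: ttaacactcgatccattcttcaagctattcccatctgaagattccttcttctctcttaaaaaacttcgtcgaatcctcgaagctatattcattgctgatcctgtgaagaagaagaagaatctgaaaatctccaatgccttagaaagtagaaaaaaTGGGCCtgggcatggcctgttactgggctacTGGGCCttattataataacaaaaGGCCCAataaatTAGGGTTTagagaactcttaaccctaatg
CR88: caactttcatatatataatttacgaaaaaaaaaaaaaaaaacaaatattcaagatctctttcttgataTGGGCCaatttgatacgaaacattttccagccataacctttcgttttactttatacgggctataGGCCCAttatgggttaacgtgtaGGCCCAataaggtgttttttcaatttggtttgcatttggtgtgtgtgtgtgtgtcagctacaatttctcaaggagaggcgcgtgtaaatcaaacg

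In TAIR10.1 these windows are chr3:5670843-5671092 (minus strand) for TCTP, chr5:23903768-23904017 (minus strand) for AT5G59240, chr5:18566583-18566832 (minus strand) for AT5G45775, chr2:15169568-15169817 (plus strand) for AT2G36160, chr3:9064275-9064524 (plus strand) for AT3G24830 and chr2:1281504-1281753 (plus strand) for CR88. The first telobox began 30 bases before the start in TCTP, 29 in AT5G59240, 25 in AT5G45775, 58 in AT2G36160 and 29 in AT3G24830. AT2G36160 has 2 teloboxes in these bases, and NUC-L1 has 2 in the first 50 bases of its transcript. AT5G45775, of the L5P family, fell from 144.5, 153.5 and 146.8 CPM to 85.55, 66.97 and 72.61 CPM (−0.98 on the log2 scale with an SE of 0.07, edgeR adjusted p = 1.4e-07). AT2G36160, of the S11 family, fell by 1.02 and AT3G24830, of the L13 family, by 0.81.

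Most changes shared with the WT background had the same direction. Of the 6012 genes called in the clf29 background, 2866 (47.7%) were also called in trb45 against WT, where 4912 genes were called, and these are 58.3% of the calls there. The direction was the same in 2726 of the 2866 (95.1%). The difference between backgrounds passed for 1429 genes, and for 949 without WT replicate 3 or without the unnumbered library. With a log2 change of at least 1 as well, 709 genes (3.7%) were called in trb45 against WT and 439 (2.29%) for the difference. Of the 3146 genes called in the clf29 background alone, it passed for 665, so most of these were not shown to differ between backgrounds. All 140 genes that moved in opposite directions passed it, which follows nearly from their choice, as both effects were called and had opposite signs. NAP, a senescence factor, is an example: it rose from 1.59, 1.93 and 1.48 CPM to 3.67, 4.53 and 4.40 CPM with clf29, and fell by 3.004 on the log2 scale in trb45 against WT.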

How the data were processed

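Polyadenylated RNA of mature leaves was sequenced in 12 libraries, 3 each of WT, trb45, clf29 and trb45 clf29. The deposited table holds raw read counts per gene, as the authors gave them. Per the submitters' processing notes the work used HISAT2, DESeq2 and TAIR10, and their versions and the counting settings are not given in the sources used here. Of 28775 genes listed, 28009 were named or placed with RefSeq's TAIR10.1 annotation. Libraries were grouped by the genotype in their labels.

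Counts were fitted with edgeR 4.0.16 in R 4.3.3 (limma 3.58.1), with 4 group means over the 12 libraries, filterByExpr, TMM scaling and the quasi-likelihood test. P-values were adjusted by Benjamini-Hochberg over 19138 genes, with a threshold of 0.05. The effect in the WT background and the interaction came from the same fit. CPM values use TMM library sizes, and a floor of 3 counts corresponds to 0.0519 to 0.0655 CPM, which covers counting error only. On simulated counts for trb45 clf29 against clf29 over 19138 genes, 200 genes above a minimum mean count were changed and the others were not. Of these changes 85% of the 2-fold and 98% of the 4-fold ones were recovered, and 5.67% of calls were false. Far fewer genes were changed than the 31.4% called in the data, and none of low counts. The simulated shares need not hold for all genes tested.

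The comparison and the gene lists were chosen with earlier results of these data known. Of 448 listed genes 16 were dropped because name and locus did not match. Named genes were the mutated genes, the 12 largest rises and falls of at least 1 CPM without overlap, the 8 risen and 8 fallen genes of smallest p above 100 CPM, up to 6 members of each list by p and any a sentence on a list needs, and the 5 largest interactions in each direction. Not every gene so chosen is described. Alternatives were RLE and library size scaling, other filters, DESeq2 1.42.0, a replicate block, the 6 libraries alone, a fold minimum and each library left out.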

Additional observations from a re-analysis of the deposited data

Results flagged for a closer look

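The genes below had an effect of trb45 that differed between backgrounds by the interaction term at an adjusted p under 0.05. Each value is the log2 fold change in the clf29 background minus that in the WT background.

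In the glucosinolate pathway the difference was 0.71 for CYP83A1, 0.83 for SOT17, 0.86 for IPMI1, 1.32 for IPMI2, 1.52 for CYP79F1 and 2.00 for BCAT4. Among iron genes it was 1.15 for NAS1, 2.38 for bHLH38, 3.17 for bHLH39 and 3.49 for BHLH100. The size for BHLH100 is uncertain, as its clf29 values lie near the floor of 3 counts. Jasmonate synthesis genes had 1.70 for AOS and 1.84 for AOC2, whereas LOX2 had −0.82, VSP2 −1.54, VSP1 −6.71 and the myrosinase-binding protein MBP2 −3.86.

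Flower-related genes differed downward, by −1.52 in ALC, −4.82 in JAG, −5.17 in SEP2 and −13.49 in MEE48. MEE48 had no count in trb45 clf29, so the last value depends on the fit and is no measure of size. Phase change and flowering genes had −0.73 for SPL11, −0.80 for SPL2, −1.19 for SPL9, −1.98 for SPL15, −1.25 for SOC1 and −1.44 for FUL. Floral repressors had 0.66 for SVP, 1.02 for TOE1 (RAP2.7) and 1.64 for SNZ.

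Defence genes had −0.48 for PR5, 2.20 for SARD1 and 6.38 for PAD3. SAG13 of the senescence list had 6.36, and TAT3, PCR1 and AT4G10500, which are in no list, had 6.36, 6.46 and 7.499. All 7 were lowest, among the trb45 clf29 libraries, in replicate 1, and the part of that library in the difference was not tested. Other differences were −0.31 for YAB3, −0.54 for CER1, −0.76 for NUC-L1, −1.28 for TRB5, 0.99 for MYBL2, 1.11 for UMAMIT20, 1.68 for UMAMIT17 and 4.34 for NAP.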

How the results depend on the processing

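With a replicate block the calls in trb45 clf29 against clf29 went from 6012 to 3897 and those of the interaction from 1429 to 657. The block leaves out the unnumbered library. Same-numbered libraries correlated at −0.0612 and −0.0546 between clf29 and trb45 clf29, and at 0.273, 0.322 and 0.0273 between WT and trb45, and not every pair is over 0.1, so the numbers were not taken to pair libraries. WT replicate 3 correlated better with trb45 replicate 1 (0.0474) than with trb45 replicate 3. A minimum absolute log2 fold change of 1 left 1116 calls in the clf29 background, 709 of 4912 in the WT background and 439 for the interaction. Leaving out 1 library at a time gave 4657 to 5581, 3506 to 4698 and 949 to 1926 calls. With library size alone 41.5% of interaction calls were positive, against 55.7% with TMM. Over 236 genes chosen by rule and 3056 gene and setting pairs, 2904 kept their side of the threshold, 126 lost a call and 26 gained one. The sign changed in 24 pairs of 10 genes, none of them called, and 0 called genes changed direction. Counts limit genes under 1 CPM most, where 19.3% were called.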
